A study of Mus musculus with 6 samples.

Results

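The RNAs read from the mitochondrial genome were compared between naive CD4+ T cells of the spleen and of the mesenteric lymph nodes (mLN). Members were the gene rows whose Ensembl identifier has a symbol beginning with mt-, which gave 37 of 55487 rows, namely 13 mRNAs, 2 rRNAs and 22 tRNAs. The rule used names only, and no measured value. The spleen group held 3 libraries and the mLN group 3 libraries, all from wild-type C57BL6/J mice that received no treatment, with the naive cells collected fresh and their age, sex and sort not stated in the labels. Polyadenylated RNA was sequenced from directional libraries, and the expected counts summed to between 13205499 and 20054205 per library. The labels do not say whether replicates came from separate animals, so the spread behind each p-value is that of the libraries and could be technical alone. In bulk samples of this kind, fewer cells of a type and less RNA per cell cannot be told apart.

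The mitochondrial genome is a small circle of DNA present in many copies per cell. Both of its strands are transcribed into long precursors by the polymerase POLRMT with the factors TFAM and TFB2M, and tRNAs lying between the other genes are cut out so that mRNAs and rRNAs are released. The mRNAs encode core subunits of complexes I, III, IV and V of oxidative phosphorylation, and the remaining subunits are encoded in the nucleus. Most mitochondrial mRNAs receive a short poly(A) tail, and for some of them the tail completes the stop codon. In this account heavy-strand members are those transcribed from the heavy-strand promoter, which are 12 mRNAs, both rRNAs and 14 tRNAs, and the light-strand promoter gives mt-Nd6 and the other 8 tRNAs.

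The last 18 bases of each mRNA are shown because the libraries were made from polyadenylated RNA, with the annotated stop in capitals. Sequences are from the GENCODE vM21 transcripts of GRCm38, the assembly that mm10 names, each on its own coding strand from 5′ to 3′.
mt-Nd1: gtaccaccatacataTAG
mt-Nd2: ccccaactaattaccTAG
mt-Co1: tatgtaaaagtaaaaTAA
mt-Co2: tctgcttcaataattTAA
mt-Atp8: tcattaccccaacaaTAA
mt-Atp6: ctacatgataatacaTAA
mt-Co3: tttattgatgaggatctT
mt-Nd3: ttagaatgaacagagTAA
mt-Nd4l: aacctactacaatgcTAA
mt-Nd4: ttacaggcctgacaataT
mt-Nd5: tcaattaatctcgagTAA
mt-Nd6: gagattactcgagatTAA
mt-Cytb: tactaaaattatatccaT

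A full stop codon closed 10 of the 13 mRNAs, and the annotated transcripts of mt-Co3, mt-Nd4 and mt-Cytb ended in a bare T to which a tail adds the rest. Neighbouring mRNA genes overlap by more than 1 base at 3 places. mt-Atp8 and mt-Atp6, both subunits of ATP synthase (complex V), share 43 bases, chrM:7927-7969, which are in capitals below with 20 flanking bases on each side. mt-Nd4l and mt-Nd4 share 7 bases, and the ends of mt-Nd5 and mt-Nd6 overlap by 14 bases on opposite strands.
mt-Atp8/mt-Atp6: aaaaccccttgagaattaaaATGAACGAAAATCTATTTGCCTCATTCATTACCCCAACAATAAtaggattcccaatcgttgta

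The tRNA rows held no measurement. All 22 tRNAs were listed at 0 in all 6 libraries, with lengths between 59 and 75 nt and an effective length of 0 nt throughout. The effective length is the number of positions at which a fragment of the library could start within the transcript. The span by which RSEM shortened long transcripts was between 260.8 and 301.1 nt. None of the 1413 rows of up to 80 nt in the files had a count in any library, and the shortest row with a count was 168 nt long. A level of 0 for these tRNAs is therefore a property of the counting, and no upper limit can be drawn from it. The shortest, mt-Ts2, a serine tRNA, and the longest, mt-Tl1, a leucine tRNA, are shown to give the size of what was not counted.
mt-Ts2: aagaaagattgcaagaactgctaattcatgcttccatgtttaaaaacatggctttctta
mt-Tl1: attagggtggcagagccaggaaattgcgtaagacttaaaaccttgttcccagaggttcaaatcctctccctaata

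The other 15 members had counts and passed the filter on low counts. All 15 were lower in mLN in their fitted change, and 12 of them passed the test, namely 10 of the 13 mRNAs and both rRNAs. No member was higher. Tests were edgeR's quasi-likelihood test over 12486 genes at a Benjamini-Hochberg adjusted p under 0.05, which called 13.5% of all tested genes lower in mLN and 16.1% higher. The median log2 fold change, mLN minus spleen, was -0.79 over the 13 mRNAs against -0.01 over all genes tested. Every mLN library lay below every spleen library for 14 of the 15 members, the exception being mt-Nd3, as against 20.3% of all tested genes.

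**Figure D1:**
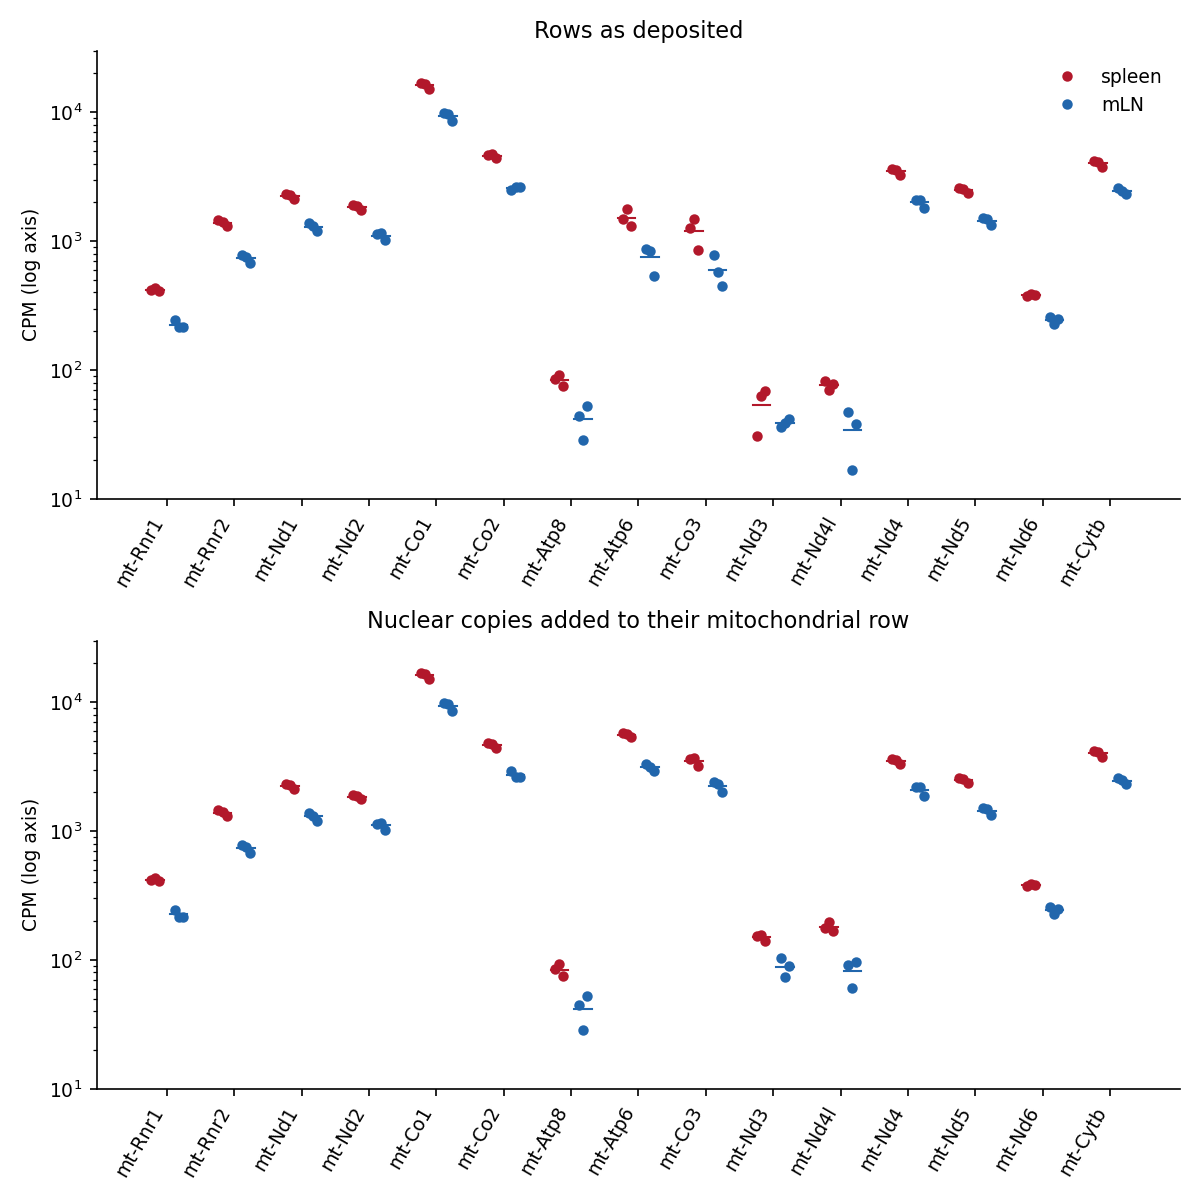
CPM (log axis) of the 13 mRNAs and 2 rRNAs in each spleen (red) and mLN (blue) library, in genome order, with rows as deposited above and with nuclear copies added below. Dots are libraries and short lines are means of 3; the groups overlap only for mt-Nd3 as deposited and for no member once copies are added.

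The rRNAs of the mitochondrial ribosome come first along the heavy-strand transcript. mt-Rnr1, the small-subunit rRNA (chrM:70-1024), stood at 420, 433 and 407 CPM (counts made relative to one total for each library) in spleen replicates 1, 2 and 3 and at 245, 214 and 216 CPM in mLN replicates 1, 2 and 3. All mLN values lay well below all spleen values, and the log2 fold change was -0.90, standard error 0.06 (adjusted p = 3.09e-09, edgeR). mt-Rnr2, the large-subunit rRNA (chrM:1094-2675), was at 1457, 1401 and 1305 CPM in spleen and at 778, 749 and 677 CPM in mLN. Its log2 fold change was -0.92 with a standard error of 0.06, again with no overlap between the groups.

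Complex IV, cytochrome c oxidase, takes its catalytic core from mt-Co1 and mt-Co2. mt-Co1 (ENSMUSG00000064351, chrM:5328-6872) carried the most counts of any member, at 16916, 16452 and 15205 CPM in spleen and 9872, 9756 and 8526 CPM in mLN. Its lowest spleen library was far above its highest mLN library, and its log2 fold change was -0.79, standard error 0.06 (adjusted p = 1.03e-08, edgeR). mt-Co2 was at 4623, 4764 and 4420 CPM in spleen and at 2474, 2616 and 2616 CPM in mLN, a log2 fold change of -0.84. mt-Co3, the third core subunit (chrM:8607-9390), was at 1260, 1487 and 858 CPM in spleen and at 782, 576 and 448 CPM in mLN. Its groups did not overlap, but both were widely spread, and it missed the threshold with a log2 fold change of -0.997 and a standard error of 0.32 (adjusted p = 0.0978, edgeR).

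Complex I, the NADH dehydrogenase, has 7 mitochondrial subunits. mt-Nd1 was at 2308, 2281 and 2136 CPM in spleen and 1379, 1309 and 1203 CPM in mLN, with a log2 fold change of -0.79. mt-Nd2 went from a mean of 1845 ± 74.1 to 1105 ± 71.1 CPM, mt-Nd4 from 3485 ± 211 to 1998 ± 152 CPM and mt-Nd5 from 2491 ± 98.9 to 1443 ± 92.7 CPM (SD, n = 3 each). These 4 passed the test with adjusted p-values no higher than 1.03e-08 (edgeR). mt-Nd3 (chrM:9459-9806) was at 30.8, 62.4 and 68.9 CPM in spleen and at 36.2, 39.2 and 41.8 CPM in mLN. Spleen replicate 1 lay below all 3 mLN libraries, and mt-Nd3 had an adjusted p of 0.378 (edgeR). mt-Nd4l (chrM:9877-10173) was at 82.4, 70.0 and 78.1 CPM in spleen and at 47.3, 16.8 and 37.8 CPM in mLN. It had the largest fitted change of the members, -1.17, with the largest standard error, 0.40, and its adjusted p was 0.111 (edgeR).

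mt-Nd6, the only mRNA of the light-strand promoter and also a complex I subunit (chrM:13552-14070), was at 373, 390 and 381 CPM in spleen and at 256, 227 and 247 CPM in mLN. The groups were clearly apart, and the log2 fold change was -0.65, standard error 0.06 (adjusted p = 9.84e-08, edgeR). mt-Cytb, the cytochrome b of complex III (chrM:14145-15288), was at 4192, 4138 and 3749 CPM in spleen and at 2591, 2470 and 2329 CPM in mLN, a log2 fold change of -0.71. For ATP synthase, mt-Atp6 was at 1491, 1777 and 1306 CPM in spleen and at 868, 842 and 536 CPM in mLN, and it passed narrowly (log2 fold change -1.03, standard error 0.25, adjusted p = 0.0468, edgeR). mt-Atp8 was at 84.7, 92.2 and 75.0 CPM in spleen and at 44.4, 28.4 and 52.8 CPM in mLN (log2 fold change -0.99, adjusted p = 0.0183, edgeR). With 1 library left out, the call of mt-Atp6 was lost in 5 of the 6 cases and that of mt-Atp8 without spleen replicate 1 (adjusted p = 0.0756), spleen replicate 3 (0.0575) or mLN replicate 1 (0.0607). Without 1 library, the adjusted p of mt-Atp6 ranged from 0.0249 to 0.126, and it passed only without mLN replicate 3.

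Of the 5 members with the largest standard errors, 4 have near-identical copies among annotated nuclear genes (mt-Atp6, mt-Co3, mt-Nd3 and mt-Nd4l). For mt-Atp8 no annotated copy was found, and nuclear sequence outside annotated transcripts was not searched. Transfers of mitochondrial DNA into chromosomes can leave pseudogenes that are nearly identical to their source. A read that matches both rows is divided between them by RSEM's estimate. Of the annotated genes, 11 pseudogenes matched a mitochondrial mRNA at an identity of 95% or more over at least 100 nt, and 5 of them at 100%. None matched an rRNA. A stretch of 4663 nt on the minus strand of chromosome 1, chr1:24611535-24616197, holds 7 of the copies, in the same order as on the mitochondrial genome, from Gm29216 (a copy of the end of mt-Co1) through Gm28661 (mt-Co2), Gm10925 (mt-Atp6), Gm28437 (mt-Co3), Gm28438 (mt-Nd3) and Gm10222 (mt-Nd4l) to Gm28439 (the first part of mt-Nd4). The other copies are 3 on chromosome 2 and 1 on chromosome 13.

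How little separates a copy from its source is shown by the start of mt-Nd3 and of Gm28438. They differ by a single substitution over 345 aligned bases, T3C, counted from 1 at the first base of mt-Nd3, with the base of mt-Nd3 first. The differing base is in capitals.
mt-Nd3: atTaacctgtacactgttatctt
Gm28438: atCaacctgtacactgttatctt

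The pair mt-Co1 and Gm29216 likewise differs by 1 substitution over 483 aligned bases, A1066T counted from the first base of mt-Co1. mt-Atp6, mt-Co2, mt-Co3, mt-Nd4 and mt-Nd4l have no difference from their chromosome 1 copy within the aligned part. The 7 mRNAs with an annotated copy in this stretch were those whose counts were not whole numbers in every library, within 0.005. The 6 others had whole counts throughout, and once each copy was added to its source the sums were whole in 6 of 6 libraries within 0.02.

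The copies took a large and variable part of some members. Gm10925 held between 68.6% and 81.8% of the counts of mt-Atp6 and its copy together. The share of Gm28437 in the mt-Co3 pair was between 59.5% and 77.9%. For mt-Nd3 the copy held between 47.2% and 79.9%, the highest value being that of spleen replicate 1, the library in which the mt-Nd3 row was low. For mt-Nd4l the share was between 48.1% and 72.0%, the highest being that of mLN replicate 2, in which the mt-Nd4l row was low. mt-Co2 has an equally identical copy, yet its share was at most 3.81% except in mLN replicate 1, where it was 15.1%. For mt-Nd4 it was at most 1.45% in spleen and between 2.24% and 5.22% in mLN, and for mt-Co1 at most 0.0541%. Copies of mt-Nd2 and mt-Nd5 had no counts. In all, the copies took between 0.416% and 0.700% of all counts in a library. Of the counts of members and copies together they took between 13.2% and 15.0% in spleen and between 15.3% and 16.4% in mLN. Every mLN library was thus above every spleen library in this part. These shares are RSEM's estimates, and the true origin of the reads was not tested.

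The rows of the copies themselves were in part lower in mLN. Gm10925 was at 4252, 3888 and 4038 CPM in spleen and 2447, 2319 and 2407 CPM in mLN, more counts than the mt-Atp6 row in every library, with a log2 fold change of -0.76 (adjusted p = 2.90e-09, edgeR). Gm28437 was at 2386, 2180 and 2328 CPM in spleen and 1619, 1759 and 1575 CPM in mLN, a log2 fold change of -0.48 (adjusted p = 2.15e-06, edgeR). Gm10222 fell as well, with a log2 fold change of -1.09, and Gm28438 did not pass (adjusted p = 0.119, edgeR). The row of Gm28661 jumped between libraries, from 183 CPM in spleen replicate 1 and 440 CPM in mLN replicate 1 to at most 13.3 CPM in the other 4. Gm28439 ranged from 0 to 47.6 CPM in spleen and from 41.7 to 114 CPM in mLN, with a higher mean in mLN. Gm29216 ranged from 0 to 7.43 CPM, and neither passed.

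**Figure D2:**
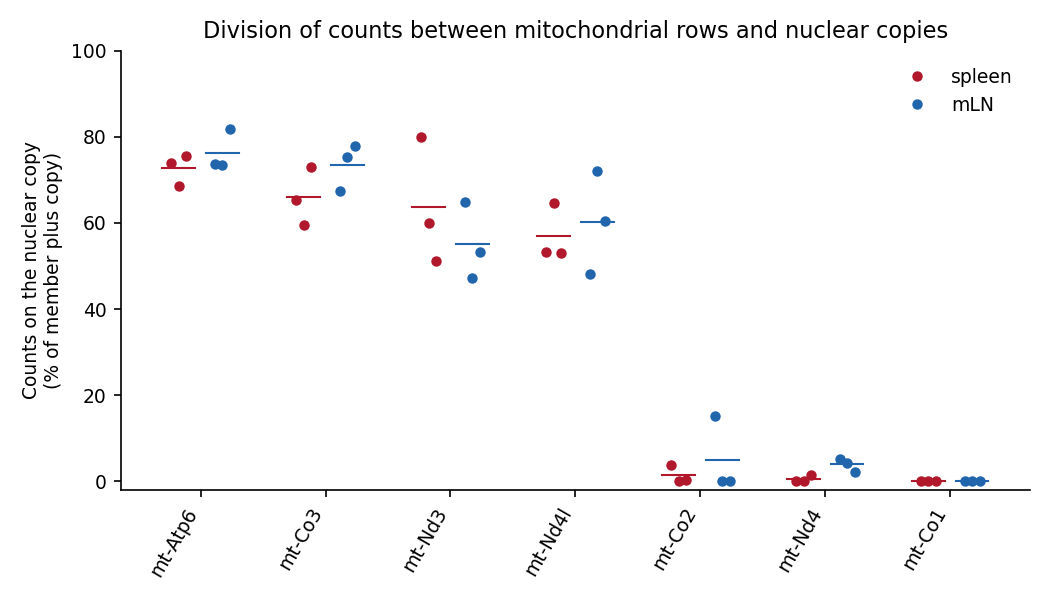
Share of the counts of a mitochondrial mRNA and its nuclear copies that was assigned to the copies, in percent, for the 7 mRNAs with an annotated copy on chromosome 1. Dots are libraries and lines are group means; mt-Atp6, mt-Co3, mt-Nd3 and mt-Nd4l lie between 47.2% and 81.8%, and the other 3 lie near 0 apart from mt-Co2 in mLN replicate 1.

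With the counts of copies added to their source, an alternative chosen after seeing the data, all 13 mRNAs were lower in mLN and passed the test, the highest adjusted p being 0.0126 for mt-Atp8 (edgeR). In that fit 13.6% of 12479 genes were lower. No member overlapped between the groups. mt-Co3 with Gm28437 was at 3646, 3666 and 3186 CPM in spleen and at 2402, 2335 and 2022 CPM in mLN, a tight pair of groups. The log2 fold change became -0.64, standard error 0.07 (adjusted p = 7.46e-07, edgeR). mt-Atp6 with Gm10925 was at 5743, 5666 and 5345 CPM in spleen and 3316, 3161 and 2942 CPM in mLN, and its standard error went from 0.25 to 0.06 at a log2 fold change of -0.83.

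The weakly counted complex I members had smaller standard errors as well. mt-Nd3 with Gm28438 was at 153, 156 and 141 CPM in spleen and at 103, 74.2 and 89.2 CPM in mLN, and the spleen library that had been low no longer stood apart. The log2 fold change was -0.75, standard error 0.10 (adjusted p = 6.89e-06, edgeR). mt-Nd4l with Gm10222 was at 177, 198 and 166 CPM in spleen and at 91.0, 60.1 and 96.0 CPM in mLN. It kept the largest change, -1.12 (standard error 0.18, adjusted p = 0.00327, edgeR), and mLN replicate 2 still lay below the other 2 mLN libraries. The calls that depended on 1 library were those of mt-Atp8, for which no annotated copy was found. Its adjusted p was 0.0616 without spleen replicate 1 and 0.0509 without mLN replicate 1 (edgeR). The log2 fold changes of the 13 mRNAs then ran from -1.12 to -0.64, that is from 0.459 to 0.644 of the spleen level, with a median of -0.78.

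The sizes depend on how transcript length is treated. After removal of a smooth trend of level on transcript length in each library, with copies added, all 13 mRNAs still passed, from -0.71 for mt-Nd5 to -0.26 for mt-Nd6, with a median of -0.51, and 9.31% of all genes were lower. The rRNAs were then at -0.65 for mt-Rnr1 and -0.80 for mt-Rnr2. On log2 of TPM plus 1 the 13 mRNAs ran from -0.69 to -0.31 with copies added, all passing, where 3.1% of genes were lower and the median of all genes was itself shifted to 0.21. Without adding copies, the fitted change of mt-Nd3 turned to 0.03 with the length trend removed and to 0.04 on log2 TPM, neither passing.

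**Figure D3:**
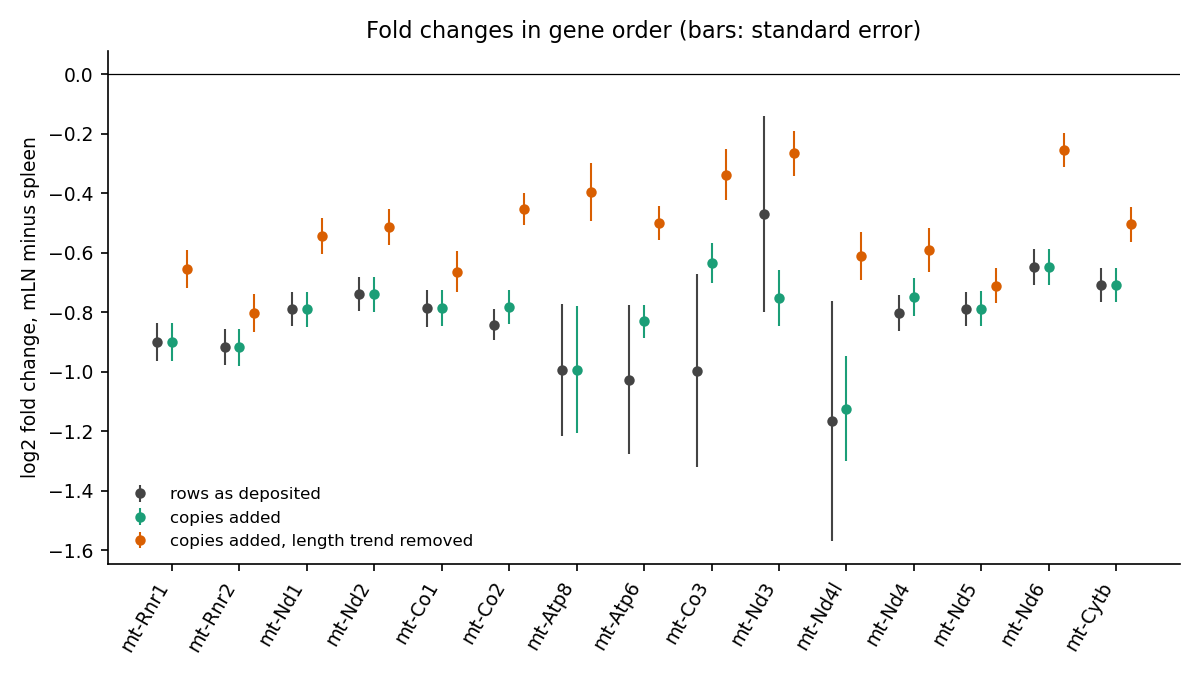
Log2 fold change, mLN minus spleen, of each member in genome order with its standard error, from 3 and 3 libraries, for rows as deposited, with nuclear copies added, and with copies added and the length trend removed. With copies added the mRNAs lie between -1.12 and -0.64; the wide bars of the deposited mt-Atp6, mt-Co3, mt-Nd3 and mt-Nd4l shrink, and removal of the length trend brings the values nearer 0.

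The changes showed little order along the transcript. Across the 12 heavy-strand mRNAs with copies added, the rank correlation (Spearman) of fold change with position along the genome was 0.175. Across all 13 mRNAs it was 0.302 with length, and -0.643 with length after removal of the length trend. These points come from the same 6 libraries and are given as a description. By complex, the median log2 fold changes were -0.75 for the 7 complex I members, -0.71 for the complex III member, -0.78 for the 3 complex IV members and -0.91 for the 2 complex V members, again with copies added.

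As a share of the library, the 37 rows took 4.11%, 4.07% and 3.70% of all counts in spleen and 2.43%, 2.38% and 2.12% in mLN. The group means were 3.96% ± 0.228 and 2.31% ± 0.164 (SD, n = 3 each), a ratio of 0.584, and the groups were well apart. The exact two-sided permutation test gave p = 0.1, the smallest that 3 against 3 libraries allow, and 0.111 after adjustment over 10 related comparisons, so no share or ratio here can pass a threshold of 0.05. With copies added the shares were 4.62% ± 0.239 and 2.75% ± 0.191 (SD, n = 3 each). On TPM, which is scaled by length, the 37 rows made up 7.66% ± 0.402 of the spleen total and 5.29% ± 0.294 of the mLN total (SD, n = 3), a ratio of 0.690.

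By class, the 12 heavy-strand mRNAs took 3.89%, 3.85% and 3.49% of counts in spleen and 2.30%, 2.26% and 2.01% in mLN. mt-Nd6 took 0.0371%, 0.0385% and 0.0377% in spleen and 0.0258%, 0.0229% and 0.0249% in mLN. The 2 rRNAs took 0.187%, 0.181% and 0.169% in spleen and 0.103%, 0.0972% and 0.0899% in mLN. All 3 classes were lower in every mLN library than in any spleen library, with mLN to spleen ratios of 0.585, 0.650 and 0.541. Each gave p = 0.1 in the exact permutation test.

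**Figure D4:**
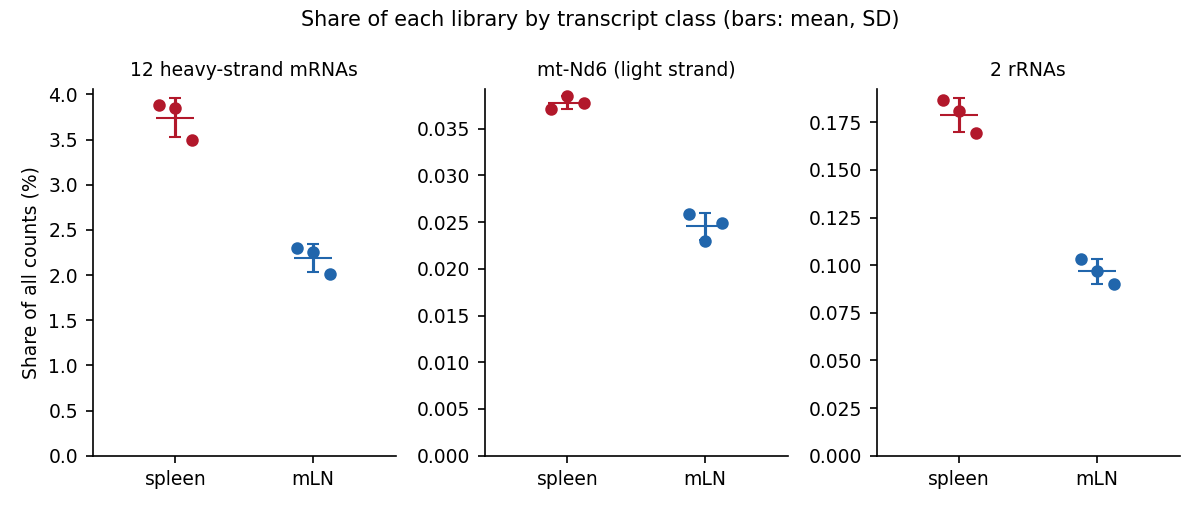
Share of all counts, in percent, taken by the 12 heavy-strand mRNAs, by mt-Nd6 and by the 2 rRNAs in each library, on axes that start at 0. Dots are libraries and bars are the mean and SD of 3; in each panel all mLN libraries lie below all spleen libraries, at 0.585, 0.650 and 0.541 of the spleen mean.

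The balance between strands was less clear than the level. The log2 ratio of mt-Nd6 to the sum of the heavy-strand mRNAs was -6.71, -6.65 and -6.53 in spleen and -6.48, -6.62 and -6.34 in mLN. The groups overlapped, mLN being higher by 0.15 on average (p = 0.2, exact permutation test). With copies added the difference was 0.12 (p = 0.3, exact permutation test). On TPM it was 0.22 as deposited and 0.18 with copies added, with no overlap in either (p = 0.1 each, exact permutation test). The TPM sum leans on mt-Atp8, which has a very short effective length. It made up 23.0% of mitochondrial mRNA TPM in spleen and 22.7% in mLN, as deposited. As background, mt-Nd6 lies on the opposite strand between mt-Nd5, which it overlaps at chrM:13552-13565, and mt-Cytb. A long heavy-strand precursor therefore runs across all of mt-Nd6, beyond the overlap of the annotated genes. Whether the counting used strand is not stated in the sources used here, and the part of heavy-strand RNA in the mt-Nd6 row was not tested.

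The rRNA to mRNA ratio differed by a small amount in 1 direction. Its log2 value was -4.39, -4.43 and -4.38 in spleen and -4.50, -4.55 and -4.50 in mLN, so that every mLN library was lower, with a mean ratio at 0.923 of that in spleen (p = 0.1, exact permutation test). With copies added the spleen values lay between -4.64 and -4.63 and the mLN values between -4.80 and -4.76, a difference of -0.15. As background, mitochondrial rRNAs carry only very short A tails, so poly(A) selection captures little of them. Of 10 tested members of a list of RNAs that normally lack a long tail, 4 fell and 0 rose, where 13.5% of all genes were lower and 16.1% higher, and the list's median log2 fold change was -0.76. Named after their values were seen, these were Rn7sk, the 7SK RNA that holds back transcription elongation, at 0.425 of its spleen level, Rpph1, the RNA of RNase P, at 0.482, and Rn7s1 and Rn7s2, RNAs of the signal recognition particle, both at 0.442. Rn7s1 and Rn7s2 had identical values in all libraries and count as 1 measurement, though both rows enter the count and the median above. With the length trend removed, 3 of the list fell and 1 rose (median -0.36), where 9.19% of all genes were lower and 14.4% higher. Hist1h1c, a linker histone and the other member of high level, was 1.32-fold higher without passing (adjusted p = 0.0831, edgeR). None of the other tested histone genes of the list passed either. The part of RNA capture in the rRNA result was not tested.

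Within the mitochondrial mRNA pool the shares of most members overlapped between the tissues. mt-Co1 took 42.4% ± 0.628 of the pool's counts among spleen libraries and 42.7% ± 0.488 among mLN libraries (SD, n = 3), and these overlapped. Of the 13 mRNAs, mt-Cytb was the only one whose shares did not overlap as deposited, at 10.6%, 10.5% and 10.5% in spleen and 11.2%, 10.9% and 11.5% in mLN. With copies added, the shares of mt-Cytb and mt-Co3 were higher in every mLN library and those of mt-Nd1 and mt-Atp6 lower. With 3 against 3 libraries, values unrelated to tissue separate fully with a probability of 0.1. On CPM, 20.3% of all tested genes were lower and 21.5% higher in every mLN library. Shares of 1 pool are also bound together, since a rise in 1 member lowers others. mt-Co3 then took 7.84%, 8.01% and 7.54% in spleen and 8.64%, 8.69% and 8.30% in mLN, and mt-Atp6 took 12.3%, 12.4% and 12.7% in spleen and 11.9%, 11.8% and 12.1% in mLN. None of the 13 shares passed the exact permutation test, with adjusted p-values of 0.325 or more with copies added and 0.827 or more without.

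Levels per length were compared on TPM, in which counts are divided by effective length and scaled to a common total, with copies added. In spleen the order of means was mt-Atp8 (17202), mt-Atp6 (16089), mt-Co1 (15105), mt-Co2 (13283), mt-Co3 (8048), mt-Cytb (5462), mt-Nd4l (4396), mt-Nd1 (3863), mt-Nd4 (3765), mt-Nd2 (2846), mt-Nd3 (2013), mt-Nd5 (1906), mt-Nd6 (1789), mt-Rnr2 (1257) and mt-Rnr1 (726 TPM). Neighbours whose library values overlapped in spleen were mt-Atp8 with mt-Atp6, mt-Atp6 with mt-Co1, mt-Nd1 with mt-Nd4, and mt-Nd3 with mt-Nd5. All other neighbours were apart in every library. In mLN the order was the same down to mt-Cytb. Further down, mt-Nd4l came after mt-Nd4 and mt-Nd1 with overlapping values, and mt-Nd6 came before mt-Nd5, also with overlap. The place of mt-Nd4 in mLN is not firm. Its copy Gm28439 is shorter, 876 against 1378 nt, so that adding the TPM of the copy overstates the level per length. As deposited, mt-Nd4 had a mean of 2589 TPM in mLN, below mt-Nd1 at 2723 TPM.

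The top of this order rests on the treatment of copies and of short transcripts. As deposited, mt-Atp6 was at 4289, 5020 and 3785 TPM in spleen, far below mt-Atp8 at 17949, 17778 and 15879 TPM, although the annotated genes overlap on the same strand. With Gm10925 added, the values of mt-Atp6 and mt-Atp8 overlapped. mt-Atp8 is 204 nt long, shorter than the usual fragment, and its effective length was only between 3.88 and 6.17 nt, so that its TPM multiplies a small count by a large factor. The effective lengths of mt-Nd4l, between 34.5 and 52.6 nt, and of mt-Nd3, between 66.3 and 94.2 nt, were also short. mLN replicate 2 had the longest fragment span, 301.1 nt, and the lowest effective length for all 3.

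**Figure D5:**
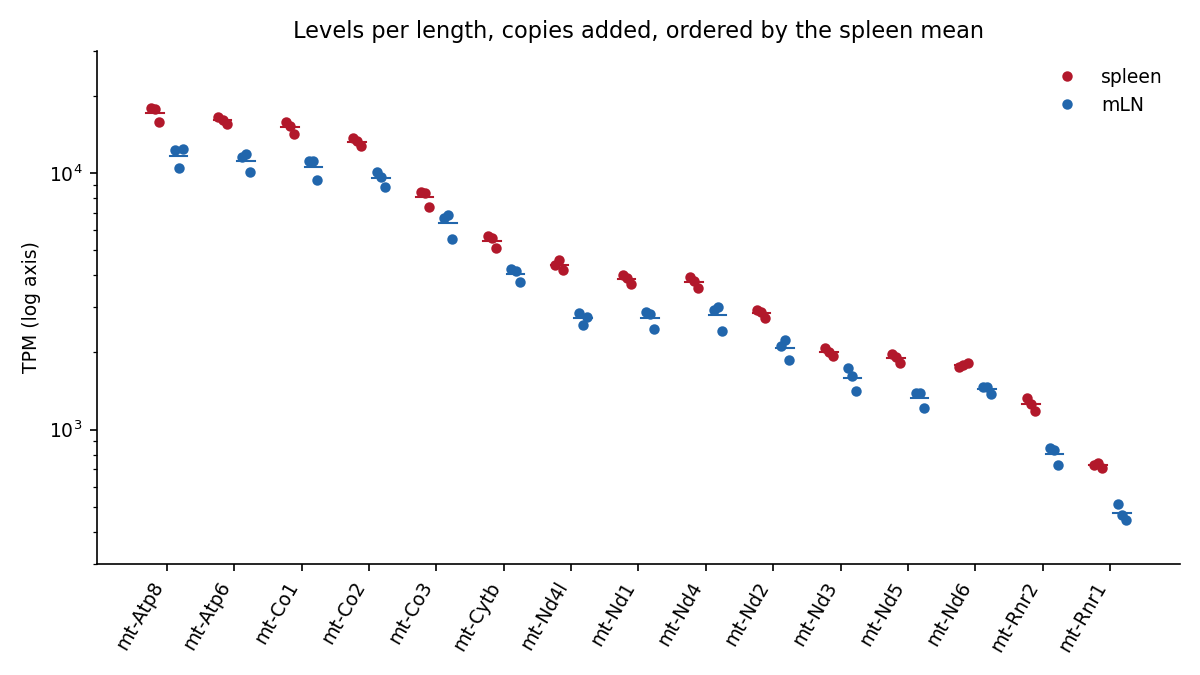
TPM (log axis) of the 15 measured members with nuclear copies added, ordered by their spleen mean. Dots are libraries and lines are means of 3; levels run from 17202 TPM for mt-Atp8 to 726 TPM for mt-Rnr1 in spleen, and every mLN mean is below the spleen mean of the same member.

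Of 58 tested nuclear genes that transcribe mitochondrial DNA and handle its RNA, 8 rose and 8 fell in mLN. These counts are near the shares over all genes, 16.1% higher and 13.5% lower, and the list's median log2 fold change was -0.07 against -0.01 for all genes. The genes named here are therefore given as single values. Polrmt, the polymerase itself, was at 32.5, 38.3 and 40.8 CPM in spleen and at 58.7, 54.4 and 66.2 CPM in mLN. It rose 1.61-fold with no overlap (log2 standard error 0.11, adjusted p = 5.45e-05, edgeR). Tfam, which packages the genome and starts transcription, had means of 77.7 ± 4.90 and 68.9 ± 7.01 CPM in spleen and mLN (SD, n = 3) and did not pass (adjusted p = 0.162, edgeR). Pprc1 and Ppargc1b, coactivators of nuclear genes for mitochondria, rose 1.76-fold and 1.70-fold.

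Among the RNA processing factors, both directions were found. Elac2, which cuts the 3′ end of mitochondrial tRNAs, rose 1.44-fold, Pus1, a pseudouridine synthase, rose 1.40-fold, and Dhx30, an RNA helicase, rose 1.26-fold. Hsd17b10 and Trmt10c, protein subunits of the mitochondrial RNase P, fell to 0.674 and 0.759 of their spleen levels, and Trnt1, which adds CCA to tRNAs, fell to 0.775. Tefm, the elongation factor of POLRMT, fell to 0.386, from 6.82 ± 0.340 to 2.64 ± 0.757 CPM (SD, n = 3 each), and Mterf1a fell to 0.632. Slirp, which with LRPPRC stabilises mitochondrial mRNAs, was at 9.48, 13.2 and 9.04 CPM in spleen and at 4.36, 6.53 and 7.34 CPM in mLN, and it fell to 0.576 of spleen (adjusted p = 0.0152, edgeR). Lrpprc had means of 84.2 ± 1.81 and 94.0 ± 3.68 CPM (SD, n = 3; adjusted p = 0.148, edgeR). With the length trend removed 10 genes of the list rose and 5 fell, where 14.4% of all genes were higher and 9.19% lower. On log2 TPM 12 rose and 2 fell, where 22.1% of all genes were higher and 3.08% lower. On median-centred log2 TPM, where 6.39% of all genes were higher and 7.58% lower, 2 rose and 3 fell. Of 17 tested genes for the upkeep of mitochondrial DNA, 4 rose and 1 fell, again beside 16.1% and 13.5% of all genes. Polg, the DNA polymerase, rose 1.47-fold and Lonp1, a matrix protease, rose 1.35-fold, while Ssbp1, the single-strand binding protein, fell to 0.720 of its spleen level.

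Nuclear-encoded subunits of the same complexes were in part lower in mLN as well. Over all genes 13.5% were lower and 16.1% higher. For complex I, 21 of 36 tested nuclear subunits fell and 0 rose, with a median log2 fold change of -0.37 against -0.75 for the mitochondrial subunits with copies added. For complex III, 4 of 9 fell and 1 rose (median -0.29, against -0.71 for mt-Cytb). For complex IV, 8 of 10 fell and 0 rose (median -0.41, against -0.78). For complex V, 10 of 16 fell and 1 rose (median -0.40, against -0.91). The nuclear result depends on the scaling. With the length trend removed, the nuclear medians in the same order were -0.08, 0.02, -0.09 and -0.11, with 3, 1, 0 and 2 subunits lower and 0, 2, 1 and 1 higher, where 9.19% of all genes were lower and 14.4% higher. On median-centred log2 TPM the nuclear medians were -0.33, -0.19, -0.37 and -0.37, with 11, 3, 6 and 10 subunits lower and 0 higher, where 7.58% of all genes were lower. The median of the mitochondrial mRNAs with copies added was -0.51 on the first of these scales and -0.72 on the second, and all 13 passed on both. The difference between nuclear and mitochondrial subunits was not itself tested.

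Markers of other cells also differed between the groups. For the counts of calls below, 13.5% of all tested genes were lower in mLN and 16.1% higher. The summed level of the naive CD4+ T cell markers was between 6427 and 6651 CPM in spleen and between 5987 and 6121 CPM in mLN, and none was at 0. B cell markers summed to between 631 and 672 CPM in spleen and between 371 and 401 CPM in mLN, with 10 of 11 lower. Most of that sum was Ighm, at 0.697 of its spleen level, while Cd74, Cd79b, H2-Aa and H2-Eb1 were at 0.234, 0.244, 0.193 and 0.196 of theirs. Neutrophil markers summed to between 34.5 and 40.7 CPM in spleen and at most 1.39 CPM in mLN, with Elane at 0 in all libraries. The 7 tested were at most 0.347 CPM in any mLN library and passed the filter on low counts through spleen alone. A call lower was thus the only one open to them, and their calls are not counted. Macrophage and monocyte markers summed to between 38.4 and 43.7 CPM in spleen and between 3.30 and 4.71 CPM in mLN, with 7 of 8 lower. Among these, C1qa, C1qc, Vcam1 and Mrc1 were at most 0.307 CPM in mLN and likewise passed the filter through spleen alone. The share over all genes is therefore no matching background for that count. Markers of CD8+ T cells and NK cells summed to between 20.1 and 23.3 CPM in spleen and between 14.1 and 22.2 CPM in mLN, and 0 of 5 tested passed. Red cell markers stayed under 0.921 CPM in every library. Platelet markers summed to between 211 and 217 CPM in spleen and between 223 and 237 CPM in mLN. Most of that sum was Itgb3, with means of 211 CPM in spleen and 230 CPM in mLN. Pf4 and Gp1bb were at 0 in all libraries, and neither of the 2 tested platelet genes passed. The part of these cells in the mitochondrial result was not tested.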

How the data were processed

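RNA sequencing of naive CD4+ T cells from spleen and mLN (3 libraries each) was analysed from the deposited tables per gene. The submitters' processing notes name STAR, RSEM and the genome mm10; which release of the annotation, which tool versions and which strand setting were used is not given in the sources. The values tested were the deposited expected counts, which RSEM estimates for each gene without normalization, per the file headers. The deposited TPM and FPKM values were scaled by the authors for length and depth, per the file headers, and FPKM was not used in any test. Transcript and effective lengths in nucleotides are deposited beside them, per the file headers.

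Symbols were matched for 55141 of 55487 identifiers, and coordinates came from GENCODE vM21 of GRCm38. Expected counts were rounded. Genes were filtered with filterByExpr and scaled by TMM factors, and edgeR 4.0.16 gave quasi-likelihood tests (robust, two-sided, tissue only) with Benjamini-Hochberg adjustment at 0.05. CPM is relative to the total over tested genes, scaled by the TMM factors. Shares and ratios were tested by exact permutation of libraries. Nuclear copies were annotated transcripts matching a member in BLAST+ 2.17.0, added to their source as an alternative chosen after seeing the data. Alternatives were other scalings, DESeq2 1.42.0, limma-voom and log2 TPM plus 1 in limma 3.58.1, filters, a replicate block, a threshold of 0.01, removal of a length trend (loess span 0.3) and each library left out. Other software was R 4.3.3, Python 3.11.15, scipy 1.17.1 and pandas 2.3.3.

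The members and gene lists were chosen with earlier results of these data known. All 15 members with counts are named. From the transcription and RNA list, Polrmt, Tfam, Lrpprc and Slirp are named, with up to 6 called genes per direction of smallest p, and up to 2 per direction from the DNA upkeep list. On simulated data for this comparison (12486 genes), edgeR found 24%, 48%, 76% and 82% of sets of 50 genes changed 1.3-fold, 1.5-fold, 2-fold and 4-fold, with 11 false calls. Over all tested genes same-numbered libraries hardly deviated together, and the labels name no pairs, so they were not treated as pairs. The mitochondrial share of counts did fall in the order of replicates 1, 2 and 3 in both groups. It was 4.11%, 4.07% and 3.70% in spleen and 2.43%, 2.38% and 2.12% in mLN. A floor of 3 counts corresponds to between 0.150 and 0.227 CPM, for counting error only.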

Additional observations from a re-analysis of the deposited data

How the results depend on the processing

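The count of mitochondrial mRNAs called lower was between 8 and 12 of 13 under the 18 alternatives fixed at the start and between 11 and 13 with copies added, and both rRNAs were called in all 30. The fitted change of mt-Nd3 reversed to 0.0387 on log2 TPM and 0.0286 after removal of the length trend, both as deposited. The calls in the list of transcription and RNA genes that fell, 8, became 4 at a threshold of 0.01, 13 with upper-quartile factors, 5 after removal of the length trend, 2 on log2 TPM and 3 with that scale median-centred, and ranged from 2 to 9 with 1 library left out, the lowest without spleen replicate 2; those that rose became 2 on median-centred log2 TPM. Over all 12486 genes tested, calls lower were 1689 in the main fit, 1069 at 0.01 and 2046 with upper-quartile factors. After removal of the length trend 1148 genes were called lower. On log2 TPM the number was 384, and on median-centred log2 TPM 947, where calls higher became 798. With 1 library left out, between 1243 and 1638 genes were called lower, the fewest again without spleen replicate 2. Against a total without mitochondrial and ribosomal protein genes, the log2 difference of mt-Nd6's share became -0.70. The rRNA to mRNA difference was -0.12, and with copies added -0.15 on counts and -0.14 on TPM. Members with non-overlapping shares of mitochondrial mRNA numbered 2 on TPM, 4 with copies added, 5 with both, and from 1 to 5 with 1 library left out, the most without spleen replicate 3. Full separation comes more easily with fewer libraries, and none of these counts is read as a result about the members. With the replicate block, 9 mRNAs passed, or 11 with copies added, where mt-Nd4l (adjusted p = 0.0816, edgeR) and mt-Atp8 (0.140) did not. With the block 13 transcription and RNA genes fell and 10 rose, where 2140 of all 12486 genes were lower and 2566 higher. With copies added and the block, 2141 of 12479 genes were lower. The block took the standard error of mt-Nd1, as deposited, from 0.06 to 0.03. Over all tested genes, same-numbered libraries correlated at 0.0223, 0.00230 and 0.0652 only. The tRNA to mRNA ratio was not run, since all tRNA rows are 0. Adding copies at the same depth took the standard error of mt-Nd3 from 0.33 to 0.10 and that of mt-Nd4l from 0.40 to 0.18. The cause of these shifts was not tested.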
